A study of Mus musculus with 6 samples.

Results

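PU.1 and 9 other ETS-family transcription factors were followed in c-Kit+ APL progenitors and in normal MPs (myeloid progenitors). The 10 genes were picked by name, as ETS factors with known roles in blood cells, by a rule that uses no measured value: PU.1 (listed under its older symbol Sfpi1), Spib, Ets1, Ets2, Fli1, Erg, Elf1, Elf4, Etv6 and Gabpa. They are 10 of the 16440 genes in the deposited table, and all 10 passed the filter on low values that left 14595 genes for testing. The choice of members was made with earlier results of these data known.

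The data were 6 RNA-seq libraries, 3 from each group. The MP libraries were made from Lin−Sca-1−c-Kit+ BM cells of FVB N/J mice, so cells positive for Sca-1 or for markers of mature lineages were not collected. The APL libraries were made from GFP-labeled c-Kit+ cells of the same strain. These leukemia cells arose in hMRP8-PML/RARα transgenic mice, in which the human MRP8 promoter drives the PML/RARα fusion in myeloid cells, were marked with GFP by the retroviral vector MigR1 and were expanded by transplantation into syngeneic recipients. No drug treatment is recorded for either group. The labels do not give the age of the mice or the number of primary leukemias behind the APL cells, and no lineage or Sca-1 gate is named for the APL sort. The series describes the 3 libraries of each group as biological replicates without saying whether each came from its own mouse, so n counts libraries and the p-values measure the spread between these libraries.

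ETS factors share a DNA-binding domain that recognizes a GGAA core, and the bases around the core and the partner proteins set which member binds where. PU.1 drives myeloid and B-cell development in a dose-dependent way, acting with C/EBP, RUNX and IRF factors and in mutual antagonism with GATA1. FLI1 and ERG serve stem cells and megakaryocytes, ETV6 is a repressor needed for haematopoiesis in the BM, ETS1 is best known in lymphoid cells, and GABPA, with its GABPB partner subunits, acts at the promoters of many broadly expressed genes, among them genes of mitochondria. In human leukemia several of these genes are themselves partners in gene fusions or targets of mutation, and in APL the PML/RARα fusion protein is known to bind many sites together with PU.1.

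Sequence was shown for the members whose upstream region bears on such a core motif or on the comparison of groups. RefSeq promoter entries on GRCm38.p6 matched 7 of the 10 members, with 11 start sites in all. Sfpi1, Ets1 and Fli1 were not matched. Across the 250 bases before each start site, both strands were searched for CCGGAAG, a sequence of the kind that most ETS factors bind, and for GAGGAAG, of the kind that PU.1 prefers. Both hold GGAAG and differ only in the bases before it. Of the 32851 RefSeq promoters of this length, 6.91% held CCGGAAG, 10.6% held GAGGAAG, 16.8% held at least 1 of them and 0.718% held both. Among the 11 member promoters 1 held a match, that of Gabpa, and it held both motifs. It is printed below 5′ to 3′ on its own strand, with the 2 matches in capitals, followed by the promoter of Ets2, a member with higher levels in APL, in which neither was found.
Gabpa promoter, chr16:84834874-84835123, plus strand: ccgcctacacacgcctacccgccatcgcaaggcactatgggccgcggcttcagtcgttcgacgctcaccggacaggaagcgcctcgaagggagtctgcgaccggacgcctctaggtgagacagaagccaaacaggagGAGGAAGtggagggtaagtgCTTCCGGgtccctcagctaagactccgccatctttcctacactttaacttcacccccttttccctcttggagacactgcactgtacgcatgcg
Ets2 promoter, chr16:95702157-95702406, plus strand: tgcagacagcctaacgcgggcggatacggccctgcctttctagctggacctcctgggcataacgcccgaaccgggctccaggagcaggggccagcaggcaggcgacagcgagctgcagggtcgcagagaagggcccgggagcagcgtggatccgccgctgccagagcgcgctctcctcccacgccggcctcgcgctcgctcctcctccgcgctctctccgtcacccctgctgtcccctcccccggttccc
In the Gabpa promoter GAGGAAG starts 113 bases before the start site on the strand of the gene, and CTTCCGG, which is CCGGAAG on the other strand, starts 93 bases before it. A match describes these letters and is not a measured binding site.

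4 of the 10 members were higher in APL progenitors than in normal MPs, beside 21.7% of all genes tested, and 0 were lower, beside 24.4% of all genes tested. A gene was called with limma at a Benjamini-Hochberg adjusted p under 0.05 over all genes tested and a fold change over 1.5. In either direction 46.1% of genes were called, so the count of called members was close to that of genes at large. At an unadjusted limma p under 0.05, whatever the fold, 4 members were higher and 3 (Erg, Etv6 and Elf1) were lower. The share of all genes at that p was not computed, so these counts have no background to be read against. The 4 that rose were Ets1, Ets2, PU.1 and Fli1, with log2 fold changes from 1.11 to 2.53. The median log2 fold change was 0.068 over the 10 members and -0.10 over all genes tested. The groups did not overlap for 8 of the 10 members, beside 70.9% of all genes tested: all APL libraries were above all MP libraries for 5 (beside 31.1%) and below for 3 (beside 39.8%). Values of single libraries are given in the order of their numbers, 1 to 3. They are estimated fragments as deposited, which carry a scaling factor particular to each library (scaled fragments), and FPKM, fragments per length and depth, where levels of different genes are compared. Since these are bulk cell populations, fewer cells of a type and less RNA per cell cannot be told apart.

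**Figure D1:**
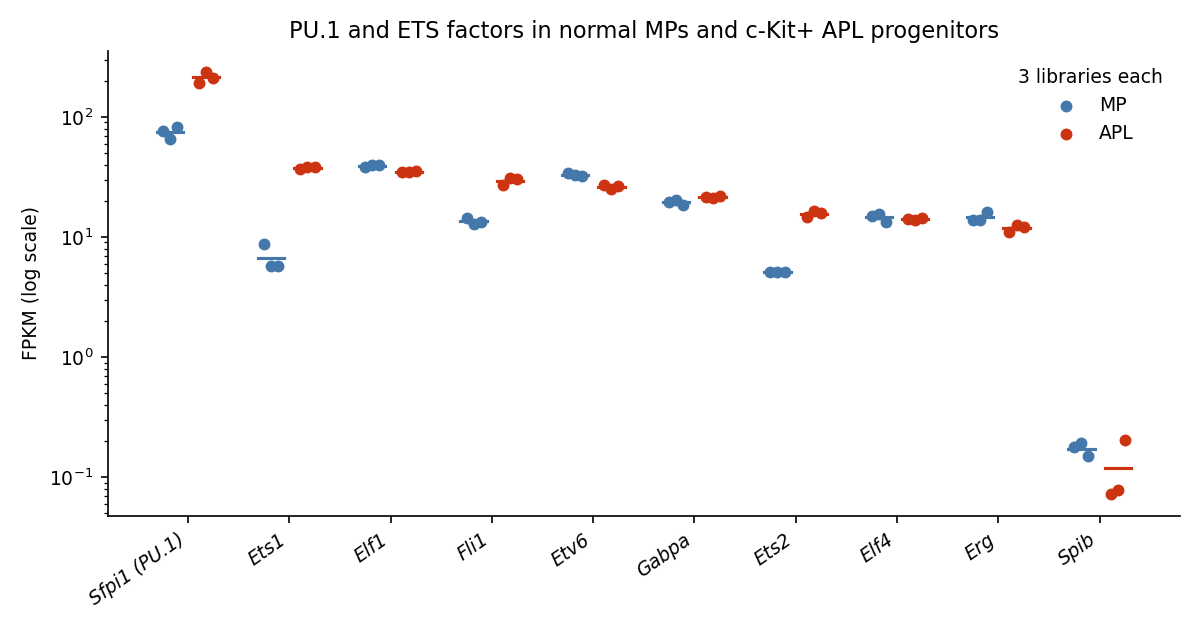
Levels of the 10 members in each library in FPKM, on a log axis, with MP libraries and APL libraries as separate points and a bar at each group mean. PU.1 is the highest member in both groups, Ets1, Ets2 and Fli1 stand above the MP points in all APL libraries, and Spib lies far below the others in both groups.

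PU.1 was the most abundant member per length in both groups and rose further in APL progenitors. Sfpi1 (Entrez 20375, chr2:91096796-91115756) had 2275, 1925 and 2641 scaled fragments in MP, against 5634, 6998 and 6250 in APL. Every APL library was above every MP library, with the lowest value in MP library 2. The means were 2280.2 ± 358 and 6294 ± 683 (SD over 3 libraries each), which is a log2 fold change of 1.47 (SE 0.12, 95% interval 1.19 to 1.75, limma adjusted p = 8.7e-06) or 2.77-fold. Of all genes tested, 10.3% had a larger log2 fold change. In FPKM its level went from 75.0 ± 8.52 to 213 ± 23.1.

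Spib, the closest relative of PU.1 and a factor of B cells and plasmacytoid dendritic cells, was near the floor of detection. Before scaling, 12, 13 and 11 fragments were counted in MP, against 4, 6 and 11 in APL. The groups overlapped, since APL library 3 reached the level of the MP libraries while the other two lay below it. The log2 fold change was -0.60 (SE 0.40, 95% interval -1.51 to 0.32, limma adjusted p = 0.22), and this interval holds both no change and a 1.5-fold fall, so that a difference was not detectable at this depth. Without APL library 3 it was -1.03 (adjusted p = 0.033) and Spib would have been called lower. Markers of the cells that use Spib did not move one way. The summed FPKM of 5 plasmacytoid dendritic cell markers was 59.4 to 75.5 in MP libraries and 118 to 156 in APL libraries. Il3ra (log2 fold change 1.81) and Bst2 (0.93) were called higher. Siglech and Ccr9 were called lower, both at 3 fragments or fewer in all APL libraries. Tcf4 was lower in all APL libraries but under the fold threshold (-0.48, limma adjusted p = 0.00041). Bst2 lies on chromosome 8, whose genes were higher than other genes by a median of 0.61 on the log2 scale. The summed FPKM of 6 B-cell markers was 12.9 to 15.6 in MP libraries and 7.08 to 9.52 in APL libraries, with 3 of the 5 tested lower and 1, Vpreb1, higher (9.96 to 109 scaled fragments, log2 fold change 3.35). Ebf1 was at 3 fragments or fewer in all APL libraries and Ms4a1 in all libraries of both groups. Their part in the values of Spib was not tested.

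Ets1 showed the steepest rise of the 10. Ets1 (Entrez 23871, chr9:32696041-32757820) had 1208, 797 and 798 scaled fragments in MP, against 5140.5, 5359 and 5379 in APL. MP library 1 stood above the other two, and all MP libraries were far below the 3 APL libraries, which lay close together. The means were 934 ± 237 and 5293 ± 132, a log2 fold change of 2.53 (SE 0.15, 95% interval 2.19 to 2.87, limma adjusted p = 9e-07) or 5.77-fold. Of all genes tested, 4.89% rose more. Markers of T cells and NK cells, in which Ets1 is best known, were low in both groups: the summed FPKM of 5 T-cell markers was 3.69 to 5.64 in MP libraries and 2.37 to 3.23 in APL libraries, and that of 4 NK-cell markers was 0.220 to 0.427 and 0.108 to 0.202. Cd3e was at 3 fragments or fewer in all 6 libraries. Cd4 (201 to 2.56 scaled fragments, log2 fold change -6.18, limma adjusted p = 1.7e-05) and Klrb1c (-1.37, limma adjusted p = 0.02) were called lower. Lck, Cd3d and Ncr1 were not called. The part of such cells in the values of Ets1 was not tested.

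Ets2, a factor activated by phosphorylation downstream of RAS and present in myeloid cells, also rose. Ets2 (Entrez 23872, chr16:95702406-95721049) had 485, 476 and 486 scaled fragments in MP, against 1369, 1565 and 1513 in APL. The MP libraries were almost equal, and the lowest APL library was well above them. The means were 482 ± 5.54 and 1482 ± 101, a log2 fold change of 1.62 (SE 0.08, limma adjusted p = 3.1e-07) or 3.06-fold.

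Fli1, an activator of megakaryocyte and stem cell genes, rose as well, the least of the 4. Fli1 (Entrez 14247, chr9:32422207-32541368) had 1203, 1076 and 1099 scaled fragments in MP, against 2227, 2553 and 2541 in APL. All APL libraries were above all MP libraries. The means were 1126 ± 67.4 and 2440.35 ± 185, a log2 fold change of 1.11 (SE 0.08, limma adjusted p = 3.6e-06) or 2.16-fold.

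Erg, the nearest relative of Fli1, went the other way by a small amount and was not called. Erg (Entrez 13876, chr16:95360203-95530365) had 861, 839 and 1009 scaled fragments in MP, against 669, 763 and 749 in APL. The APL libraries were all below the MP libraries. The log2 fold change was -0.31 (SE 0.10, 95% interval -0.53 to -0.09, limma adjusted p = 0.021), a 1.24-fold difference under the 1.5-fold threshold. Per length, the ratio of Fli1 to Erg was 0.931 ± 0.101 in MPs and 2.45 ± 0.0229 in APL progenitors, a pair of genes set side by side after their values were seen.

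The members with roles as repressors or as broadly expressed activators differed little. Etv6, the repressor (Entrez 14011, chr6:134035706-134270147), had 5345, 5086 and 5037 scaled fragments in MP, against 4197, 3913 and 4135 in APL. All APL libraries were below all MP libraries, and the log2 fold change of -0.34 (SE 0.07, limma adjusted p = 0.0017) was under the 1.5-fold threshold. Elf1, an activator found throughout blood cells (Entrez 13709, chr14:79459936-79582476), had 4628, 4782 and 4778 scaled fragments in MP, against 4183, 4173 and 4368 in APL. The APL libraries were again all lower, by a log2 fold change of -0.16 (SE 0.06, 95% interval -0.30 to -0.01, limma adjusted p = 0.051).

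Elf4, an activator with roles in NK cells and in stem cell quiescence, gave no detectable difference. Elf4 (Entrez 56501, chrX:48411048-48463132) had 2421, 2507 and 2187 scaled fragments in MP, against 2325, 2305 and 2382 in APL. The groups overlapped, and the log2 fold change was -0.019 (SE 0.07, limma adjusted p = 0.83) with a 95% interval of -0.18 to 0.15. Gabpa (Entrez 14390, chr16:84827870-84863778) had 2812, 2950 and 2632 scaled fragments in MP, against 3076, 3047 and 3211 in APL. All APL libraries were above the MP libraries by a little, and the log2 fold change of 0.15 (SE 0.07, limma adjusted p = 0.076) was not called. Gabpa and Elf1 share their deposited loci with Atp5j and Wbp4, so fragments could have been divided between the genes of each locus, while Atp5j and Wbp4 themselves were not called (log2 fold changes of -0.19 and -0.068). In the two-sided exact permutation test over libraries, p was 0.1 for 8 members, the smallest that 3 against 3 libraries can give, 0.4 for Spib and 0.9 for Elf4.

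**Figure D2:**
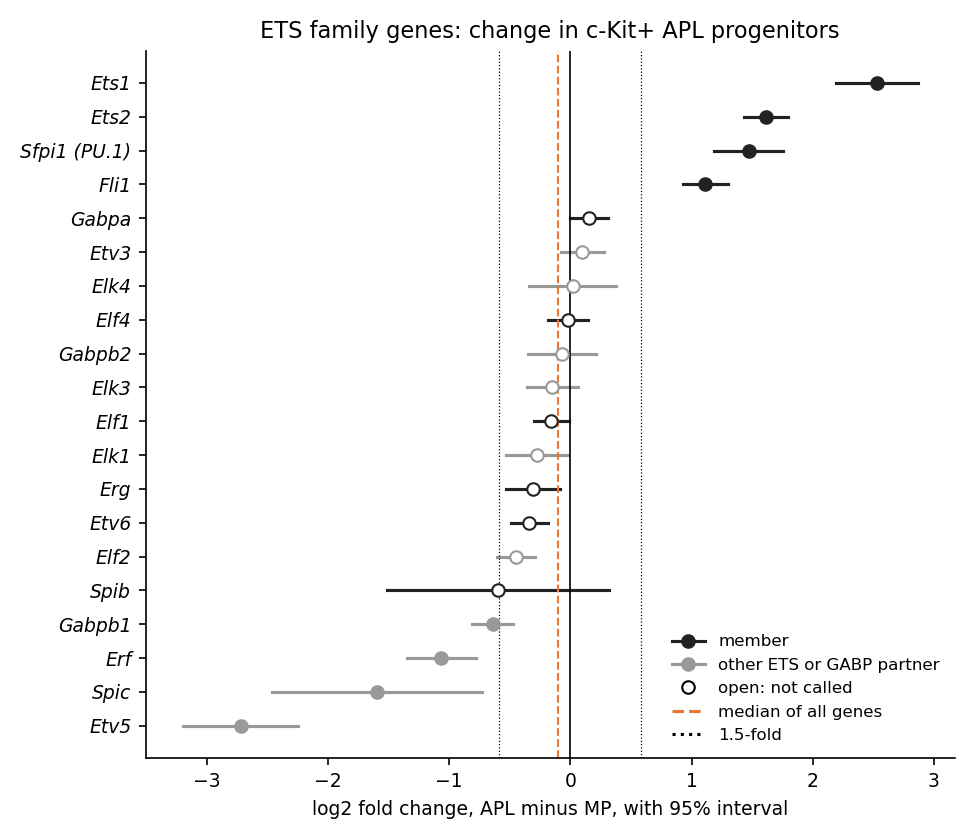
Log2 fold change (APL minus MP) of the members and the other ETS genes tested, with 95% intervals from limma as horizontal lines, members in black, other genes in grey and open circles for genes not called. Ets1, Ets2, PU.1 and Fli1 lie to the right of the 1.5-fold line, and Etv5, Spic, Erf and Gabpb1, which are not members, and Spib, a member that was not called, lie to the left of its counterpart for lower genes. Elf5 and Etv1 are left out because they have almost no fragments.

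The order of the members' levels per length shifted. In MPs the order by mean FPKM was PU.1 (75.0), Elf1 (39.1), Etv6 (33.00), Gabpa (19.5), Erg (14.6), Elf4 (14.6), Fli1 (13.5), Ets1 (6.74), Ets2 (5.09) and Spib (0.173). Erg and Elf4, and Elf4 and Fli1, did not differ beyond their spread, and the libraries of all other neighbours in the order did not overlap. In APL progenitors the order was PU.1 (213), Ets1 (37.5), Elf1 (34.9), Fli1 (29.3), Etv6 (26.2), Gabpa (21.4), Ets2 (15.6), Elf4 (14.2), Erg (12.0) and Spib (0.118). Fli1 and Etv6 overlapped, and all other neighbours were separate. Ets1 thus went from the eighth place to the second and Fli1 from the seventh to the fourth, while Erg went from the fifth to the ninth.

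Per length, PU.1 took up a larger part of all ETS transcripts in APL progenitors. The FPKM of all 23 ETS genes in the table, the 10 members and 13 others, summed to 283, 272 and 290 in MP, against 425, 475 and 451 in APL. PU.1 held 27.0%, 24.3% and 28.6% of that sum in MP libraries and 44.9%, 49.96% and 47.0% in APL libraries. The APL shares were all above the MP shares, with means of 26.6% ± 2.19 and 47.3% ± 2.54 (SD, n = 3). The share of Ets1 went from 2.40% to 8.34%, that of Ets2 from 1.81% to 3.47% and that of Fli1 from 4.80% to 6.51%. Those of Elf1 (13.9% to 7.77%), Etv6 (11.7% to 5.84%), Gabpa (6.95% to 4.76%), Elf4 (5.19% to 3.16%) and Erg (5.18% to 2.66%) went down. Shares add up to a whole, so that a share can go down while the level does not.

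**Figure D3:**
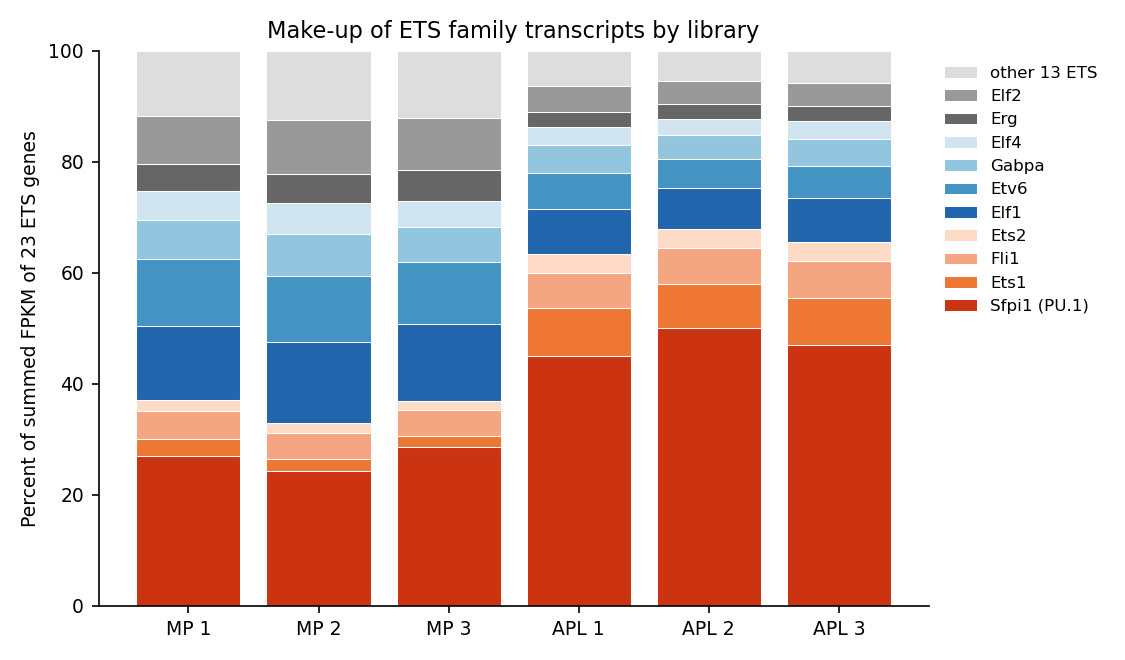
Share of the summed FPKM of 23 ETS genes in each library, in percent, stacked by gene for 9 members and Elf2, with Spib and the remaining 12 ETS genes joined at the top. PU.1 takes between 24.3% and 28.6% in the MP libraries and between 44.9% and 49.96% in the APL libraries.

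Of 12 further ETS and GABP subunit genes tested, 1 was called higher and 5 lower, beside 21.7% and 24.4% of all genes tested. The median log2 fold change was -0.36, or -0.21 with genes at the floor taken at their bound. Etv5, an activator of the PEA3 group, had 213 ± 31.5 scaled fragments in MPs and 31.7 ± 7.01 in APL progenitors (log2 fold change -2.72, SE 0.21, limma adjusted p = 4.9e-06). Erf, a repressor controlled by MAP kinase, went from 692 ± 79.0 to 330.5 ± 38.5 (log2 fold change -1.07, adjusted p = 7.2e-05), and Gabpb1, a partner subunit of GABPA, from 1374 ± 81.0 to 881 ± 17.9 (log2 fold change -0.64, adjusted p = 6.7e-05). The other calls rest on few fragments before scaling: Spic, a macrophage relative of PU.1, had 10, 10 and 19 in MP libraries against 2, 3 and 4 in APL libraries, Etv1 had 4, 2 and 2 against 0 in each, and Elf5, the gene called higher, had 0 in each against 1, 3 and 2, so that no fold is given. Gabpb2 and Elk4 changed least, with log2 fold changes of -0.069 (adjusted p = 0.64) and 0.020 (adjusted p = 0.92). Per length, Gabpa and Gabpb1 were about equal in MPs, with a ratio of 0.998 ± 0.0687, which was 1.65 ± 0.0176 in APL progenitors.

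Of 14 genes that act with or against PU.1, 4 were higher and 6 lower, beside 21.7% and 24.4% of all genes tested. Their median log2 fold change was 0.12. Cebpa, the C/EBP factor that starts granulocytic differentiation, rose from 2269 ± 180.2 to 5768 ± 801 scaled fragments (log2 fold change 1.34, limma adjusted p = 6.4e-06), and Cebpb, its relative of later myeloid cells, rose from 423 ± 53.3 to 1662 ± 379 (1.96, adjusted p = 7.9e-06). Gfi1, a repressor that restrains PU.1 activity in favour of granulocytes, rose from 2587 ± 274 to 8114 ± 311 (1.65, adjusted p = 4.7e-07). On the other side Gata1, the erythroid and megakaryocytic antagonist of PU.1, fell from 2862 ± 412 to 18.3 ± 11.3 (log2 fold change -7.40, adjusted p = 5.9e-07), and Gata2 fell from 2838 ± 549.6 to 69.9 ± 15.2 (-5.33, adjusted p = 4.4e-08). Irf8, the IRF partner of PU.1 in monocytic cells, fell from 2966 ± 398 to 97.7 ± 14.7 (-4.91, adjusted p = 1.8e-08). Irf4 and Cebpe changed least (0.00, adjusted p = 1, at about 5 fragments in both groups, and 0.24, adjusted p = 0.21), and Runx1 was at 0.52 (adjusted p = 0.0002), under the fold threshold. Jun, also called lower (-0.69, adjusted p = 0.033), overlapped between the groups. Cbfb, also called higher (0.79, limma adjusted p = 1e-05), lies on chromosome 8, as does Irf8. Genes of that chromosome were higher than other genes by a median of 0.61 on the log2 scale.

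Set against PU.1 per length, the ratio to Gfi1 overlapped between the groups and that to Cebpa was a little higher in all APL libraries. Those to Runx1, Gata1 and Irf8 went up further. The ratio of PU.1 to Cebpa was 1.94, 1.796 and 2.04 in MP libraries and 2.23, 2.12 and 2.14 in APL libraries. That of PU.1 to Gfi1 was 1.73, 1.67 and 2.41 in MP libraries (1.94 ± 0.414) and 1.60, 1.84 and 1.71 in APL libraries (1.71 ± 0.122). That of PU.1 to Runx1 was 4.68 ± 0.740 in MPs and 10.6 ± 0.825 in APL progenitors. PU.1 to Gata1 was 1.12 ± 0.111 in MPs and 1138, 555 and 303 in APL libraries 1 to 3, where Gata1 had only 6, 21 and 24 fragments before scaling, and PU.1 to Irf8 was 1.84 ± 0.0626 and 159 ± 8.55. These pairs were chosen after the values were seen. Erythroid and megakaryocyte markers moved with the Gata genes: the summed FPKM of 6 erythroid markers was 197 to 233 in MP libraries and 8.30 to 17.0 in APL libraries, and that of 5 megakaryocyte markers was 60.8 to 93.7 and 1.51 to 2.82. Their part in the ratios was not tested.

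Known myeloid targets of PU.1 were mostly higher. Of 20 tested, 13 were higher (beside 21.7% of all genes tested), 2 lower (beside 24.4%) and 5 not called. Their median log2 fold change was 1.11 against -0.10 over all genes. This list, like the others, was chosen with earlier results of these data known. All APL libraries were above all MP libraries for 14 targets (beside 31.1% of all genes tested) and below for 5 (beside 39.8%). Among those below, Itgb2 (-0.52, limma adjusted p = 0.013) and Syk (-0.46, limma adjusted p = 0.00018) were not called. Among the cytokine receptors, the GM-CSF receptor chains Csf2rb (1933 ± 145.5 to 12536 ± 634 scaled fragments, log2 fold change 2.70, limma adjusted p = 2.3e-08) and Csf2ra (1451 ± 200.3 to 4935 ± 579, 1.77, adjusted p = 2.2e-06) rose, and so did the G-CSF receptor Csf3r (0.89, adjusted p = 0.00023). The M-CSF receptor Csf1r went the other way, with 1533, 1284 and 1429 scaled fragments in MP, against 390.0, 458 and 367 in APL (log2 fold change -1.81, adjusted p = 1e-06). The largest rise was that of Tlr4, the endotoxin receptor (253 ± 50.1 to 2072 ± 126, log2 fold change 3.051, adjusted p = 2.5e-07), and Fcgr3, an Fc receptor, followed among those not yet named (1.89, adjusted p = 1.2e-06). The cathepsin Ctss also fell (-1.61, adjusted p = 0.0011), while Btk and Ncf4 changed least (-0.10, adjusted p = 0.23, and 0.31, adjusted p = 0.055). Csf2rb has a near-identical neighbour gene, so its fragments could have been divided between the copies. Genes of chromosome 15, where Csf2rb and Ncf4 lie, were higher than other genes by a median of 0.58 on the log2 scale. None of the members lies on chromosome 15 or 8, the pair with such a shift.

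By summed FPKM, the promyelocyte markers rose. The mature neutrophil and the monocyte and macrophage markers did not, though single genes of those lists differed. The plasmacytoid dendritic cell sum given above also rose. The summed FPKM of 4 promyelocyte markers (Mpo, Elane, Prtn3 and Ctsg, of which Mpo and Elane are also among the targets) was 8378 to 9460.35 in MP libraries and 22920.4 to 27383 in APL libraries, with 3 of 4 called higher. That of 5 mature neutrophil markers was 1018 to 2167 and 939 to 1076, with 2 of 5 called lower and the lowest MP value in MP library 2, which also had the lowest PU.1. That of 5 monocyte and macrophage markers was 34.9 to 41.3 and 26.8 to 28.5, with 3 of 5 higher and 2 lower. The sum went down while the median log2 fold change of these 5 was 1.30. Cd14, Csf1r and Mrc1 of this list are also among the targets. Without MP library 2 the log2 fold change of PU.1 was 1.35 (limma adjusted p = 7.4e-06). Kit, the sorting marker of both groups, had 10442 to 10970.1 scaled fragments in MP libraries and 5780.2 to 6033 in APL libraries, and Cd34, another progenitor marker, 5956 to 7944 and 74.2 to 91.0. The part of these differences in the members' values was not tested.

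**Figure D4:**
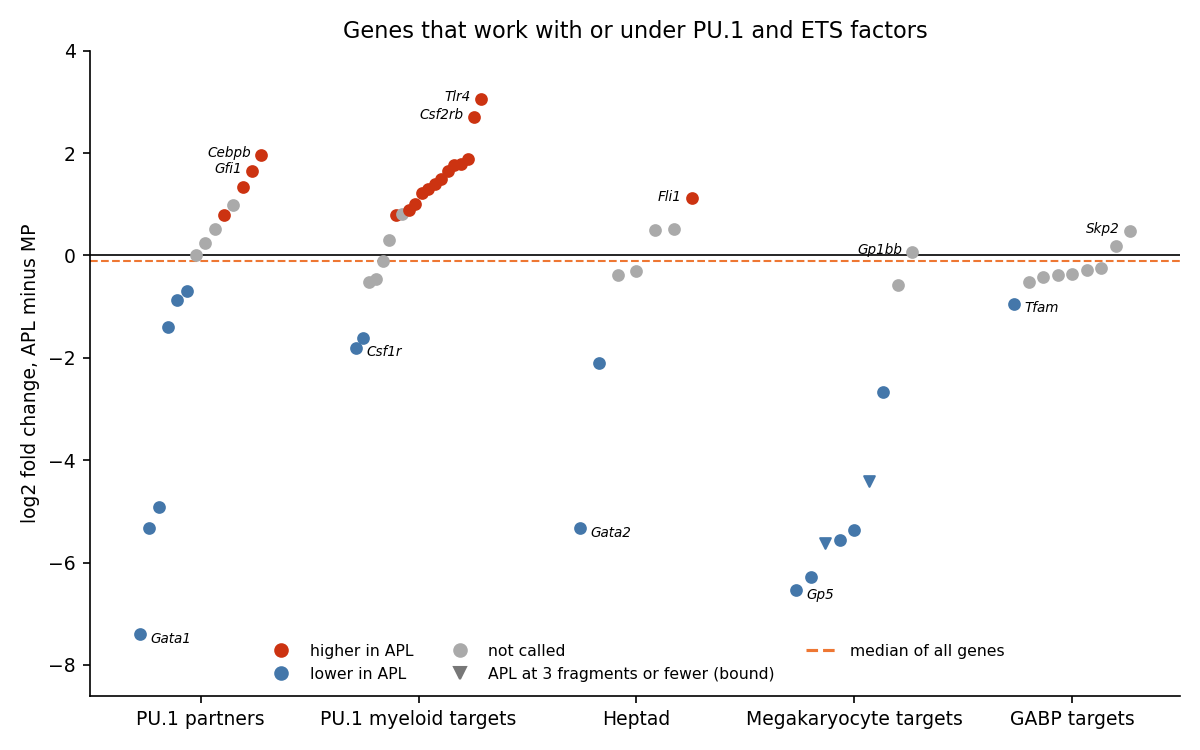
Log2 fold change (APL minus MP) of the genes in 5 lists linked to the members, sorted within each list, with color for the call, triangles for genes at 3 fragments or fewer in all APL libraries (drawn at their bound) and a dashed line at the median of all genes, -0.10. PU.1 myeloid targets lie mostly above the line, megakaryocyte targets mostly far below it, and GABP targets close to it.

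Fli1 and Erg belong to a set of 7 factors, often called the heptad, that bind together at stem and progenitor cell enhancers. Of the 7, Fli1 was the 1 called higher and 2 were called lower, beside 21.7% and 24.4% of all genes tested. These 2 were Gata2 and Tal1 (4676 ± 416 to 1093 ± 45.9 scaled fragments, log2 fold change -2.09, limma adjusted p = 8.6e-08). The other 4, Runx1 (0.52), Lyl1 (0.50), Lmo2 (-0.38) and Erg (-0.31), were under the fold threshold at adjusted p values between 0.0002 and 0.021, and the median was -0.31. Lyl1 lies on chromosome 8, whose genes were higher than other genes by a median of 0.61 on the log2 scale.

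Megakaryocyte genes known as targets of FLI1 and ERG were lower while Fli1 rose. Of 9 tested, 7 were lower, beside 24.4% of all genes tested. With limma 0 were higher (0 also at an unadjusted p under 0.05), beside 21.7% of all genes tested, and 2 were not called. The median log2 fold change was -5.50, or -5.37 with genes at the floor taken at their bound. Gp5, a platelet glycoprotein, had 413 ± 86.9 scaled fragments in MPs and 3.46 ± 1.01 in APL progenitors (log2 fold change -6.54, adjusted p = 9.9e-08). Itga2b, the integrin chain of platelets, went from 1769 ± 249 to 37.3 ± 11.6 (-5.56, adjusted p = 6.5e-08). Tek was at 3 fragments or fewer in all APL libraries, at least 48.9-fold lower than in MPs. Gp1bb and Ppbp were not called (0.077, adjusted p = 0.78, and -0.57, adjusted p = 0.51). The deposited locus of Gp1bb overlaps that of another gene, so fragments could have been divided between them. Ppbp had few fragments before scaling, 13, 7 and 3 in MP against 1, 3 and 11 in APL. Itga2b, Gp9, Pf4, Ppbp and Gp1ba of this list are also the 5 megakaryocyte markers whose sum is given above.

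Of 9 genes known as targets of GABP, 1 was lower, beside 24.4% of all genes tested. It was Tfam, a factor of mitochondrial DNA (2089 ± 89.9 to 1085 ± 63.4 scaled fragments, log2 fold change -0.95, limma adjusted p = 5.3e-06). No GABP target was higher by the full rule in limma (0 of 9, beside 21.7% of all genes tested). At an unadjusted limma p under 0.05 whatever the fold, 1, Skp2, was higher and 7 of 9 were lower. The share of all genes at that p was not computed. All APL libraries were below all MP libraries for 7 of the 9, beside 39.8% of all genes tested. The 8 not called ranged from -0.52 for Itgb2 to 0.48 for Skp2, which lies on chromosome 15, and the median of -0.37 lay somewhat under that of all genes.

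The members' pairs on 1 chromosome did not move alike in both cases. Fli1 and Ets1 lie side by side on chromosome 9 with 155 kb between their loci and 0 other genes of the table between them, and both rose. Erg and Ets2 lie side by side on chromosome 16 with 172 kb and 0 other genes between them, and Ets2 rose while Erg was not called. Per length, the ratio of Ets1 to Fli1 was 0.495 ± 0.101 in MPs and 1.28 ± 0.0689 in APL progenitors.

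Among the 10301 genes with a mean of at least 100 scaled fragments, Arpc1b, Dap, Rab3d and Mical1 were 4 of the 5 whose pattern over the 6 libraries was most like that of PU.1. Likeness was the Euclidean distance between log2 values centred on each gene's mean, which was 0.110 for Arpc1b, a subunit of the actin-nucleating Arp2/3 complex, 0.141 for Dap, 0.147 for Rab3d and 0.164 for Mical1. As with PU.1, MP library 2 was the lowest library for each of these 4, and their log2 fold changes lay between 1.42 and 1.51. Genes picked by this distance resemble PU.1 in such values by construction. Dap lies on chromosome 15, whose genes were higher than other genes as given above. This is a description over 6 libraries.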

How the data were processed

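Gene expression was measured in 3 MP and 3 APL libraries, grouped by their titles. The authors deposited, for 16440 genes, FPKM values (per length and mapped fragments) and fragment values, a signal scaled by a factor of each library. Submitters' processing notes name CASAVA 1.8 and TopHat2 2.0.6, while the paper's methods name STAR and mm9. The deposited loci follow GRCm38. Divided by the recovered step of 1 fragment, 91.7% to 92.8% of values up to 20 fragments were whole within 0.05, short of what a count test needs. Unscaled totals were 20608715 to 28382785 fragments, and scaled totals 21876288 to 25810097. Replicate variance was 2.89 times the counting variance between MP libraries 1 and 2, and 14.5 and 14.7 times against MP library 3. Between APL libraries it was 2.99 to 6.03 times.

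Limma 3.58.1 in R 4.3.3 (lmFit, eBayes with trend) was run on log2(scaled fragments + 1) for genes with at least 1 in at least 3 libraries, with Benjamini-Hochberg adjustment. Fold changes on this scale understate low genes. Folds against groups at 3 fragments or fewer are bounds. The test was checked on simulated data. Members and gene lists were chosen with earlier results of these data known. All 10 members are named, and from each list the up to 4 largest and 2 smallest changes, and others with their values. The values of some genes that this rule names are not reported here. Alternatives covered filter, pseudocount, scaling, FPKM, voom, fold threshold, library number and each library left out.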

Additional observations from a re-analysis of the deposited data

How the results depend on the processing

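Of the members, 4 were called higher under all 18 alternatives, and PU.1 (log2 fold change 1.34 to 1.58), Ets1 (2.40 to 2.73), Ets2 (1.48 to 1.68) and Fli1 (0.98 to 1.18) kept their direction under all 16 alternatives that give a fold change. The number of members lower ranged from 0 to 1 with each library left out, and the 1 was Spib without APL library 3. Spib reversed to 0.16 with quantile normalization, and Elf4 reversed to 0.044 with median-ratio scaling and to 0.022 without MP library 2 (-0.076 to 0.022 with each library left out), where the cause was not tested. Of the GABP targets, 2 were called with scaling to the same total and with voom, 0 with a fold threshold of 2, which by construction calls fewer, and 1 to 2 with each library left out, 2 without MP library 2 or APL library 2. Calls ranged from 4 to 7 among the further ETS genes, 7 to 11 among the partners, 13 to 17 among the PU.1 targets, 3 to 4 in the heptad and 5 to 7 among the megakaryocyte targets. Over all genes, scaling to the same total moved the median log2 fold change from -0.10 to -0.23.

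The same library numbers occur in both groups. Correlations of same-numbered libraries' deviations were 0.105, 0.0124 and 0.113 over 12535 genes, so the numbers were not taken to pair the libraries. When the number entered as a replicate block, 4 members were higher and 0 lower, no member's call changed, and 3164 genes were higher and 3589 lower in all, beside 3167 and 3558 without it. At these depths a gene like Spib, with 4 to 13 fragments, could not be resolved.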

Other observations

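The nearest tested genes beside the members on their chromosomes gave the following values. Mybpc3, a sarcomere gene 2.39 kb after PU.1, averaged 7.71 scaled fragments in MPs and 36.5 in APL progenitors (log2 fold change 2.12, limma adjusted p = 0.00018), while Slc39a13, 26.6 kb before PU.1, was not called (0.31). App, the amyloid precursor gene 90.7 kb after Gabpa, went from 2414 to 17704 (2.88, limma adjusted p = 4.2e-08), beside a log2 fold change of 0.15 for Gabpa. Kcnj5, a potassium channel gene 78.0 kb before Fli1, averaged 68.0 scaled fragments in MPs and was at 3 fragments or fewer in all APL libraries, at least 20.7-fold lower (limma adjusted p = 1.3e-05), beside a log2 fold change of 1.11 for Fli1.

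The summed FPKM of 4 mast cell markers was 47.4 to 64.6 in MP libraries and 37.5 to 43.0 in APL libraries. Of these markers 3 were called lower and 1 higher. In mean FPKM, Cpa3 went from 34.0 in MPs to 0.786 in APL progenitors, and Mcpt8, the 1 higher, from 17.4 to 38.6. The summed FPKM of 3 progenitor markers, Kit and Cd34 among them, was 378 to 401 in MP libraries and 160.2 to 167 in APL libraries.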
